A study of Micractinium conductrix and Chlorella sorokiniana with 12 samples.

Results

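In the green alga Micractinium conductrix, 74 of the 9349 genes in the deposited expression table (0.792%) passed a rule that picks genes with higher transcript levels in cells grown at pH 5.7 than in cells grown at pH 7.6. They were chosen from their measured values. A gene was a member if its lowest library at pH 5.7 lay above its highest library at pH 7.6, if its mean at pH 5.7 was at least 5 FPKM, and if that mean was at least 2 times the mean at pH 7.6. FPKM is a fragment count scaled to the length of the gene and the size of the library. The difference between the pH groups is therefore a property of the choice, and is described here without a test. Before the other criteria, 766 genes (9.01%) of the 8500 that averaged 1 FPKM or more were higher at pH 5.7 with no overlap between the groups. The series holds 18936 genes in 2 tables, 1 per species.

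Strain SAG 241.80 of M. conductrix, an alga that lives inside the ciliate Paramecium bursaria, was cultured without its host in a modified SAG freshwater medium at pH 5.7 or at pH 7.6. Growth pH is the difference that the labels give between both groups. The polyadenylated RNA of whole cells was sequenced in 3 libraries per pH, numbered 2, 4 and 57 at pH 5.7 and 1, 3 and 76 at pH 7.6. Values of a gene are given below in that order. The second species of the series was Chlorella sorokiniana, strain UTEX 1602, grown in a modified freshwater medium at the same pH values, with 3 libraries each. All M. conductrix cells belonged to 1 strain, and the labels do not tell whether each library had a culture of its own. FPKM are relative to the rest of a library, so more RNA of a gene per cell, more cells in a state that uses the gene and less RNA of other genes cannot be told apart.

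Among green algae, nitrate and sugars can be taken up with transporters that run on the proton gradient across the plasma membrane. The acidity of the medium is a part of that gradient, and it also sets whether dissolved inorganic carbon is mostly CO2 or mostly bicarbonate. Symbiotic Chlorella-type algae are known for releasing the sugar maltose in acidic medium, and the study addressed that release. The table identifies genes by running numbers only (g1, g2 and so on) and pairs them with no name, product, position or sequence. Neither the roles of the members nor their pathways can therefore be given, and 2 members are called by their identifiers: the one with the highest mean at pH 5.7 and the one with the largest ratio of means.

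The 6 libraries were alike in their middle but not in their estimated depth. The median level over these 8500 genes lay between 31.2 and 32.1 FPKM in each. Read totals are not in the tables. From the smallest steps between low values, library 76 was estimated at 2.04 times the depth of library 1, library 57 at 1.66 times, library 3 at 0.953 times, library 2 at 0.758 times and library 4 at 0.511 times. Each estimate is taken from the most frequent step, and most genes compared did not show that step. It was shared by 16 of 153 genes in library 76, 18 of 152 in library 57 and 21 of 117 in library 3. In library 2 it was shared by 27 of 104 genes, and in library 4 by 17 of 87. By these rough estimates, the shallowest library and the second deepest were both at pH 5.7. Libraries whose names run in sequence (1 and 2, 3 and 4) and those named after the pH (57 and 76) varied together as pairs, each pair holding 1 library of each pH. Across the 8500 genes, deviations from the group mean correlated by 0.599, 0.66 and 0.592 within the pairs.

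The members covered a wide range of levels. At pH 5.7 their means ran from 5.74 to 590.5 FPKM with a median of 50.0 FPKM, and at pH 7.6 from 0.483 to 290.3 FPKM with a median of 17.9 FPKM. The median of all 8500 genes was 32.0 FPKM at pH 5.7 and 31.7 FPKM at pH 7.6. The median member thus lay above the median gene at the acidic pH and below it at the near-neutral pH. By mean at pH 5.7, 22 members were at 100 FPKM or more, 43 between 10 and 100 FPKM and 9 between 5 and 10 FPKM. At pH 7.6, 4 members averaged at least 100 FPKM, and 20 averaged under 5 FPKM, 1 of them under 1 FPKM. None of the 444 values of the members was listed at 0.

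**Figure D1:**
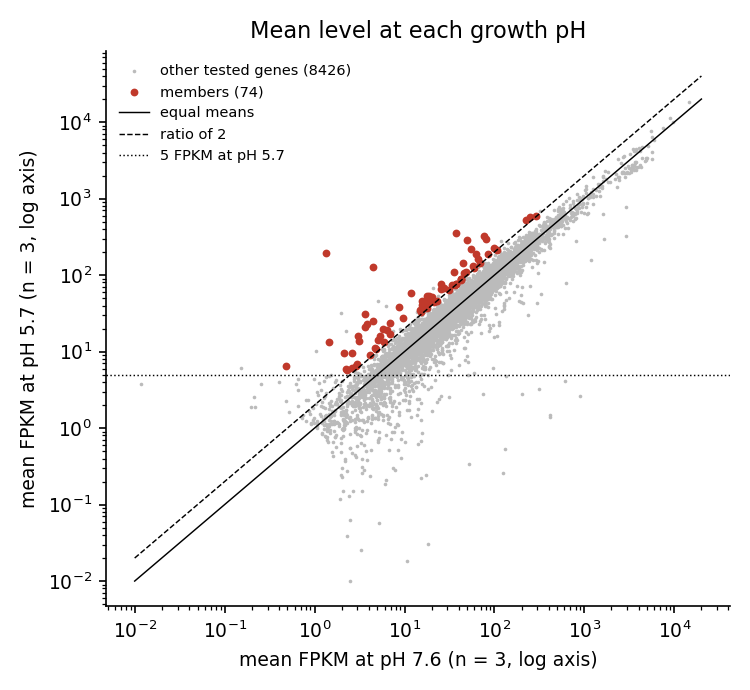
Each point is 1 gene, with its mean FPKM at pH 7.6 on the horizontal axis and at pH 5.7 on the vertical axis, both logarithmic. Means are over 3 libraries and values under 0.01 are drawn at 0.01. The 74 members (red) lie above the dashed line of a ratio of 2 and the dotted line at 5 FPKM, 35 of them at ratios under 2.5, with no member among the most abundant genes.

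The ratio of means at pH 5.7 to pH 7.6 was between 2 and 2.5 in 35 members, between 2.5 and 3 in 14, between 3 and 5 in 14, between 5 and 10 in 8, and 10 or more in 3. Its median was 2.56, with quartiles of 2.24 and 3.58. The median ratio was alike at all levels: it was 2.43 in the 22 members at 100 FPKM or more, 2.60 in the 43 at 10 to 100 FPKM and 2.48 in the 9 below 10 FPKM. No member can have a ratio under 2, which holds these medians near that limit, so nothing is read from their likeness. As mean differences of log2(FPKM + 1), the members had a median of 1.29 and a range from 0.86 to 6.77, where the median of all 8500 genes was 0.01.

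The most abundant member was g248. Its acidic libraries held 507.8, 421.7 and 841.9 FPKM, and its near-neutral libraries 357.4, 125.1 and 388.4 FPKM. The groups do not overlap, but library 4 of pH 5.7 was close to library 76 of pH 7.6, and library 3 was far below both other libraries of its pH. Its means were 590.5 ± 222.0 FPKM (SD, n = 3) at pH 5.7 and 290.3 ± 143.9 FPKM at pH 7.6, a ratio of 2.03. Among the 9349 genes, ordered from the most abundant down, it was at rank 119 in library 57 and at rank 941 in library 3. Its log2 fold of 1.12 became 0.60 without library 3.

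The largest ratio belonged to g1861, which had next to no signal in libraries 3 and 76. Its acidic libraries held 240.8, 166.0 and 170.7 FPKM, and its near-neutral libraries 3.91, 0.0512 and 0.0358 FPKM. The lowest library of pH 5.7 was 42.5 times the highest of pH 7.6, which was library 1. Among all 8500 genes no other had so wide a gap in this direction. In the ranking of all 9349 genes, g1861 was between ranks 445 and 713 in the libraries of pH 5.7 and between ranks 7906 and 8959 at pH 7.6. The ratio of its means was 144.5, and it rests on library 1, which held most of the signal at pH 7.6. With read totals unknown, the values in libraries 3 and 76 cannot be set against counting error. The log2 fold of 6.77 was 8.77 with 0.1 FPKM added to each value in place of 1, and 5.00 with 5 FPKM added.

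Another member, number 18 in the order of means at pH 5.7, was under 1 FPKM in libraries 1 and 3. It stood at 73.8, 43.5 and 263.1 FPKM at pH 5.7 and at 0.253, 0.344 and 12.9 FPKM at pH 7.6. Library 57 was the highest of the acidic group and library 76 by far the highest of the near-neutral group. The ratio of its means was 28.1. A low member, number 70 in that order, had a ratio of 13.6. Its values were 5.82, 5.16 and 8.74 FPKM against 0.268, 0.409 and 0.772 FPKM. It was the 1 member with a mean under 1 FPKM at pH 7.6, and its lowest library at pH 5.7 was 6.67 times its highest at pH 7.6.

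Among the 8 members with a ratio between 5 and 10, the one with the smallest spread at pH 5.7 relative to its mean was number 7 by mean. It stood at 289.3, 250.5 and 326.7 FPKM at pH 5.7 and at 53.4, 48.8 and 47.8 FPKM at pH 7.6. Both groups were tight, with SDs of 38.1 and 3.00 FPKM, and the lowest acidic library was 4.69 times the highest near-neutral one. Number 4 by mean was at 186.6, 170.6 and 692.8 FPKM against 18.4, 18.7 and 76.3 FPKM. Although library 57 was 4.06 times library 4, the ratio within the named pairs was nearly constant for this gene, at 10.2, 9.11 and 9.09.

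The other 6 members of this range averaged between 13.3 and 30.8 FPKM at pH 5.7. Number 53 was at 27.2, 15.2 and 25.8 FPKM against 1.59, 4.24 and 5.53 FPKM, a ratio of 6.01. Number 54 was at 26.5, 22.3 and 14.9 FPKM against 3.39, 3.32 and 4.10 FPKM, a ratio of 5.89. In both, the lowest acidic library stayed well clear of the highest near-neutral one, by 2.75 and 3.63 times. In number 51 the groups almost met: it was at 40.5, 23.1 and 10.8 FPKM against 10.4, 2.08 and 0.760 FPKM. Library 57 was barely above library 1 in that gene, although within the named pairs the level at pH 5.7 was 3.88, 11.1 and 14.2 times that at pH 7.6. A member with a smaller ratio, number 45, differed widely among its near-neutral libraries: it held 33.7, 26.3 and 53.3 FPKM against 15.8, 0.299 and 9.62 FPKM. Library 3 was low in that gene while libraries 1 and 76 were not.

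**Figure D2:**
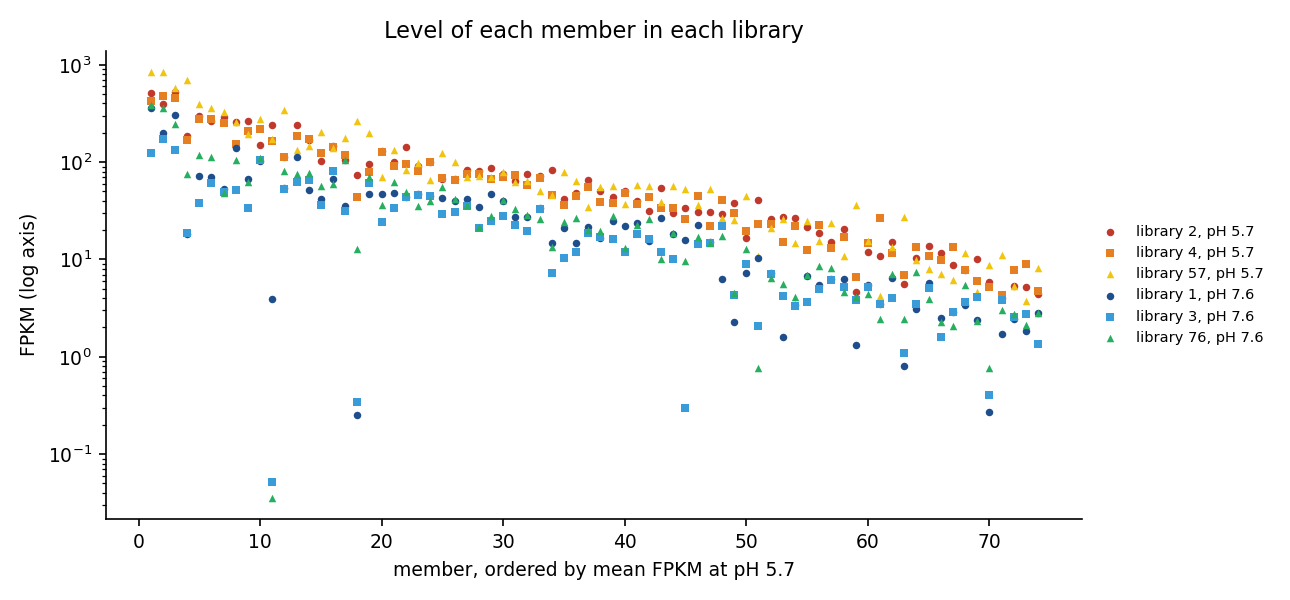
FPKM (vertical, logarithmic) of the 74 members, ordered from left to right by their mean at pH 5.7. Warm colours are the 3 libraries of pH 5.7 and cold colours the 3 of pH 7.6; every warm point of a member lies above its cold points because the members were chosen so. The isolated points at the bottom are libraries 3 and 76 of g1861.

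After g248 the most abundant members were those with means of 569.5 and 518.0 FPKM at pH 5.7. Number 2 stood at 397.0, 477.6 and 833.9 FPKM at pH 5.7 and at 199.5, 174.6 and 362.5 FPKM at pH 7.6. Number 3 stood at 528.5, 454.6 and 571.1 FPKM against 303.2, 133.0 and 244.2 FPKM. Libraries 57 and 76 led their groups in number 2, and library 3 was the lowest in both genes. Number 5 was at 297.4, 278.1 and 399.5 FPKM against 72.7, 37.7 and 117.5 FPKM, a ratio of 4.28. Number 6 was at 262.8, 276.5 and 359.1 FPKM against 71.1, 60.3 and 112.9 FPKM, a ratio of 3.68. Both had every acidic library at more than 2 times the highest near-neutral one.

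At the other end, the least abundant member stood at 4.37, 4.68 and 8.17 FPKM at pH 5.7 and at 2.79, 1.35 and 2.81 FPKM at pH 7.6. Its mean of 5.74 FPKM was the nearest above the limit of 5 FPKM. The nearest gene below that limit averaged 4.69 FPKM at pH 5.7 and had a ratio of 3.52. In all, 33 genes met the other criteria but averaged under 5 FPKM. At the limit of 2 for the ratio, the nearest member stood at 2.03 and the nearest gene outside at 1.99, with 24.7, 18.4 and 13.1 FPKM against 12.8, 8.10 and 7.26 FPKM. Between ratios of 1.5 and 2 lay 130 genes that met both other criteria. The list therefore ends within a range of ratios that runs on without a break.

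The narrowest gap in the list was that of number 17, at 104.5, 117.8 and 176.3 FPKM against 35.6, 31.3 and 104.4 FPKM. Library 76 reached the level of library 2 in this gene. The lowest acidic library was under 1.2 times the highest near-neutral library in 12 members, under 1.5 times in 31 and at least 2 times in 19, with a median of 1.60. A further 24 genes met the mean and the ratio but were left out because their groups overlapped. The nearest of these stood at 21.9, 24.1 and 53.0 FPKM against 9.11, 9.12 and 23.4 FPKM, so that library 76 fell between libraries 2 and 4. In 14 of the 24, the acidic library was higher in each of the 3 named pairs, and in 12 of the 24 both libraries 57 and 76 were the highest of their pH. The largest ratio left out in this way was 39.9, in a gene at 10.3, 7.68 and 0.268 FPKM against 0.0321, 0.360 and 0.0663 FPKM, where library 57 lay below library 3.

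Within the named pairs, the members were higher at pH 5.7 by a median of 2.38 times in libraries 2 over 1, 3.08 times in 4 over 3 and 2.56 times in 57 over 76. The corresponding medians of all 8500 genes were 1.02, 1.02 and 0.99. A ratio of at least 2 was reached by 58 members in libraries 2 over 1, 66 in 4 over 3 and 55 in 57 over 76, and by 35 members in all 3 pairs, where 46 of the 8500 genes (0.541%) did so with no limit on their mean at pH 5.7. The widest of the 3 ratios was that of libraries 4 over 3 in 37 members, of 57 over 76 in 20 and of 2 over 1 in 17. These counts by single pair were not taken over all genes. Over the tested genes, too, the quartiles lay furthest apart in 4 over 3, at 0.818 and 1.22. They were 0.870 and 1.18 in 2 over 1, and 0.826 and 1.19 in 57 over 76. Library 3 was the lowest library of pH 7.6 in 40 members, or 54.1%, against 31.2% of all 8500 genes. The rule used these values, and the difference in shares was not tested. The pairs share no library, and their differences ordered the members differently. Across the 74 members the log2 differences of the pairs had a Spearman rho of 0.54 (pairs of 2 and 4), 0.27 (2 and 57) and 0.35 (4 and 57), against 0.64, 0.39 and 0.63 across all 8500 genes. These coefficients are across genes, which are not independent, and the choice of members narrows their range.

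**Figure D3:**
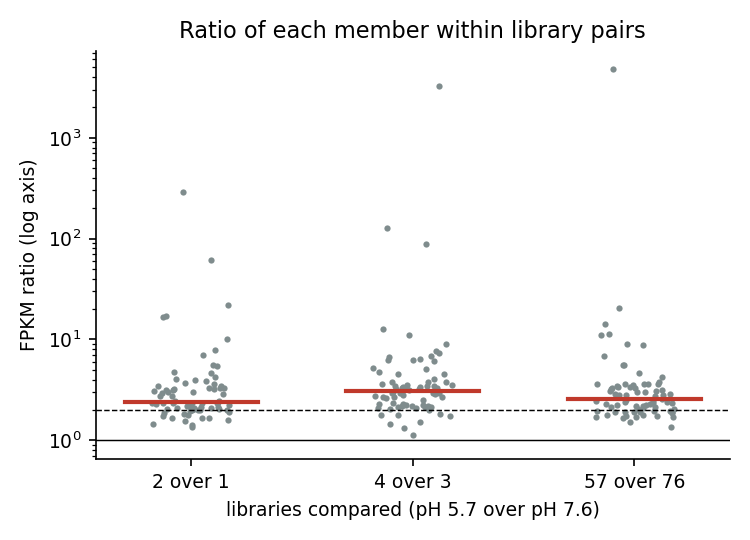
FPKM ratio (vertical, logarithmic) of each of the 74 members within the 3 named pairs of libraries, pH 5.7 over pH 7.6; red bars are the medians, 2.38, 3.08 and 2.56. The solid line marks equality and the dashed line a ratio of 2; the highest points over libraries 3 and 76 are g1861.

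Libraries of the same pH differed more in the members than over all 8500 genes, members included. The coefficient of variation over the 3 libraries had a median of 26.8% at pH 5.7 and 29.8% at pH 7.6 over the members, against 16.1% and 17.7% over all 8500 genes. The highest acidic library was a median of 1.69 times the lowest in the members, against 1.36 times over all genes. These differences among libraries of 1 pH were not tested, and 3 libraries per pH limit their precision. The rule chose the members from the same values, and the comparison was not matched for level. A trait of the members therefore cannot be told apart from an effect of the choice here. The steadiest member at pH 5.7, number 16 by mean, stood at 147.8, 141.9 and 138.1 FPKM against 67.7, 80.4 and 59.7 FPKM. Its coefficient of variation at pH 5.7 was 3.43%. The least steady, number 59, stood at 4.62, 6.54 and 36.1 FPKM against 1.32, 3.79 and 4.09 FPKM, with a coefficient of 112.1%.

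The libraries of 1 pH did not share the highest values evenly. Library 57 was the highest of pH 5.7 in 38 members (51.4%, against 39.0% of all 8500 genes), and library 76 the highest of pH 7.6 in 40 members (54.1%, against 34.4%). Library 4 was the highest of pH 5.7 in only 11 members (14.9%, against 31.3%), and library 3 the highest of pH 7.6 in 7 (9.46%, against 32.2%). Library 57 was also the lowest of pH 5.7 in 29 members (39.2%, against 42.2%). In 8 members library 57 was at least 2 times both other acidic libraries, a share of 10.8% against 3.56% of all genes, and 7 of these 8 also had library 76 as the highest of pH 7.6. They included numbers 4, 18 and 59, described above. Another of them, number 12, stood at 113.6, 111.8 and 346.8 FPKM against 54.6, 53.1 and 81.2 FPKM. Number 63 stood at 5.63, 6.94 and 27.2 FPKM against 0.796, 1.09 and 2.44 FPKM. In both, libraries 2 and 4 lay close together and library 57 far above them, with library 76 above libraries 1 and 3. The opposite pattern, with library 57 at no more than 0.5 times both others, was seen in 2 members, a share of 2.70% against 1.39% of all genes. They were number 51, given above, and number 61, at 10.8, 26.4 and 4.24 FPKM against 3.46, 3.46 and 2.43 FPKM. The rule used these values, and 1 high acidic library raises the mean at pH 5.7 on which it sets limits. A trait of the members therefore cannot be told apart from an effect of the choice in these shares, which were not tested.

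On the log2(FPKM + 1) scale, library 57 minus the mean of libraries 2 and 4 had a median of 0.19 over the members, and library 76 minus the mean of libraries 1 and 3 a median of 0.30. Over all 8500 genes both medians were near 0, at -0.02 and -0.01. Both differences were above 0 in 36 members (48.6%, against 35.5% of all 8500 genes) and neither was in 20 (27.0%, against 38.5%). In 4 members only the first was above 0 (5.41%, against 12.5%), and in 14 only the second (18.9%, against 13.5%). Pearson's r between the 2 differences was 0.66 across the 74 members (Spearman's rho 0.65) and 0.59 across all 8500 genes (rho 0.62). The 2 differences use no library in common and come from opposite pH groups. Over all genes, their r restates the correlation of 0.592 given above for the pair of 57 and 76, and is not a separate observation. The members were chosen from these same values, so a trait of theirs cannot be told apart from an effect of the choice. What distinguished libraries 57 and 76 from the others is not given in the sources used here, apart from the style of their names and their greater estimated depth, and the part of either in this pattern was not tested.

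**Figure D4:**
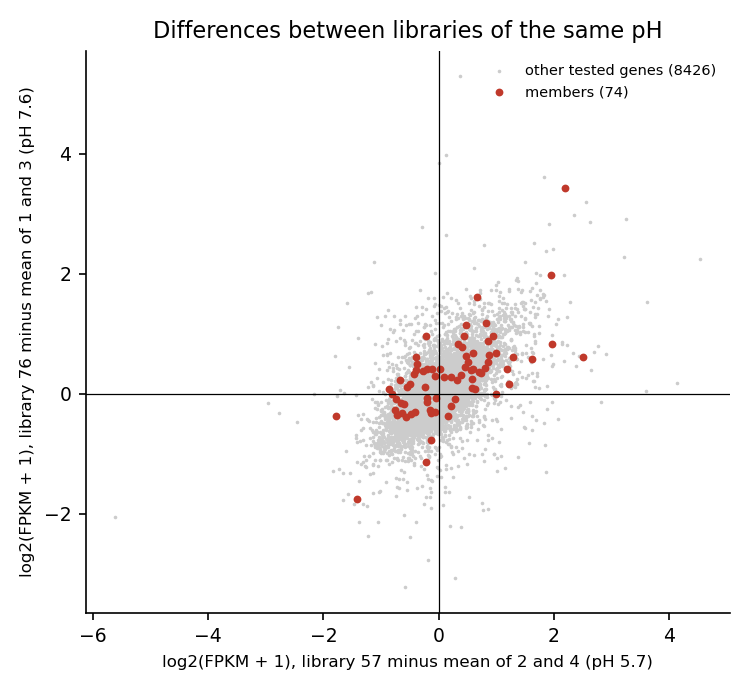
Difference between libraries grown at the same pH, on the log2(FPKM + 1) scale: library 57 minus the mean of 2 and 4 (horizontal, pH 5.7) and library 76 minus the mean of 1 and 3 (vertical, pH 7.6). Members (red) spread along the rising diagonal like the other genes (grey). Pearson's r was 0.66 over the members and 0.59 over all tested genes, members included.

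With libraries 57 and 76 left out, the same rule was met by 99 genes, 63 of them members, and the 11 members lost had ratios between 2.03 and 2.48. Of the 8 members with a high library 57, 6 were among the 63. Without libraries 1 and 2 the rule was met by 103 genes, 69 of them members, and without libraries 3 and 4 by 83 genes, 64 of them members. With 1 library left out, fewest members remained without library 57, with 56 among 79 genes, and without library 3, with 59 among 75 genes. The rule was met by 83 genes with 67 of the members without library 2, and by 98 genes with 69 of them without library 4. It was met by 115 genes with 68 of the members without library 1, and by 137 genes with 69 of them without library 76. These alternatives with a pair left out were chosen after the values were seen.

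A fit across all 8500 genes (limma on log2(FPKM + 1), Benjamini-Hochberg adjusted p under 0.05) called 22 of the 74 members higher at pH 5.7, where it called 23 genes (0.271%) in all. With the named pairs of libraries as a term, it called 65 members, where it called 411 genes (4.84%) in all. The rule used the same contrast, so nothing is read from these counts. Of the 411 genes called with pairs, 346 were not members, and their median ratio of means was 1.50. Without library 2 the unpaired fit called 2 members, of 2 genes in all. It called 4 members of 4 genes without library 4 and also without library 3, 13 of 14 genes without library 57 and also without library 1, and 17 of 19 genes without library 76. With pairs, 56 members were called of 192 genes without libraries 1 and 2, 43 of 54 genes without libraries 3 and 4, and 57 of 219 genes without libraries 57 and 76.

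Together the members made up a small part of each library. Their summed level was 0.845%, 0.847% and 1.05% of all FPKM in libraries 2, 4 and 57, and 0.320%, 0.250% and 0.379% in libraries 1, 3 and 76. The means were 0.914 ± 0.118% (SD, n = 3) at pH 5.7 and 0.316 ± 0.0643% at pH 7.6. The 10 most abundant members held between 41.2% and 53.9% of the members' sum in each library. None of the members was among the 100 most abundant genes of any library. In libraries 2, 4 and 57, 16, 16 and 20 members were among the 1000 most abundant of the 9349 genes. In libraries 1, 3 and 76, 4, 3 and 3 members were. The direction of this difference follows from the choice of the members.

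The same rule with the pH values exchanged was met by 192 M. conductrix genes (2.05%), so genes lower at pH 5.7 outnumbered the members. Their summed level was 2.65%, 3.42% and 2.85% of all FPKM in libraries 1, 3 and 76 and 0.649%, 0.690% and 0.729% in libraries 2, 4 and 57. The median ratio was 3.34 in these genes against 2.56 in the members, and 62 of them (32.3%) had a ratio of at least 5, against 11 members (14.9%). In the table of C. sorokiniana the order of the counts was the opposite, with 384 genes (4.01%) higher and 126 genes (1.31%) lower at pH 5.7 by the same rule. Identifiers are numbered separately in each species, so members could not be matched between them, and none of these differences between lists was tested.

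**Figure D5:**
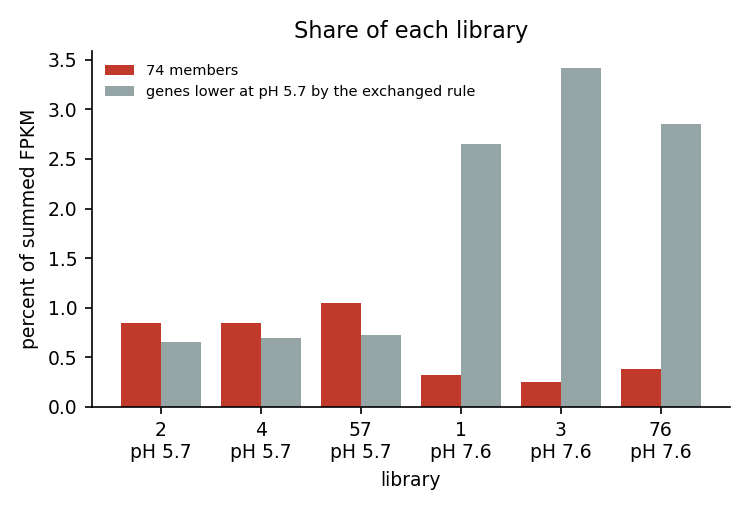
Percent of the summed FPKM of each M. conductrix library held by the 74 members (red) and by the 192 genes that met the rule with pH exchanged (grey). The members hold 0.845% to 1.05% in the libraries of pH 5.7 and 0.250% to 0.379% in those of pH 7.6, and the exchanged list holds 2.65% to 3.42% at pH 7.6.

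The identifiers run from 1 to 9349, and whether neighbouring numbers are neighbouring genes is not given in the tables. Members at consecutive numbers formed 2 pairs, so 4 of the 74 members (5.41%) had another member beside them, where 148 of all 9349 genes (1.58%) had a member beside them. In the first pair, 1 gene stood at 42.2, 36.6 and 79.0 FPKM against 21.1, 10.4 and 24.4 FPKM. Its neighbour by number stood at 100.0, 91.4 and 133.2 FPKM against 47.9, 34.1 and 62.8 FPKM. In the second pair, 1 gene stood at 87.6, 67.6 and 69.5 FPKM against 46.8, 24.99 and 28.2 FPKM, and its neighbour at 50.8, 47.9 and 37.0 FPKM against 22.3, 11.9 and 12.98 FPKM. Within each pair the libraries stood in nearly the same order: library 57 was the highest at pH 5.7 in the first pair, and library 2 in the second. Among the 138 tested genes beside a member that were not members themselves, 16 (11.6%) were higher at pH 5.7 without overlap. The median log2 fold of the 138 was 0.05. The share over all tested genes was 9.01%, but it includes the members, whose groups do not overlap by the rule.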

How the data were processed

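The authors deposited 1 table of FPKM values per species, with 1 unpooled column per library. Tools named in the submitters' processing notes, without version or role, were Cuffnorm, HISAT2, Trimmomatic, Picard and FastQC. The genome build, the gene models, the use of strand and the scaling between libraries are not given in the sources, so genes that share reads with a paralog or an overlapping gene could not be told. FPKM are not counts, so no count test was used.

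The members were found by applying the rule to the deposited FPKM of the 6 M. conductrix libraries. The members, lists and alternatives were chosen with earlier results of these data known. The fits used limma 3.58.1 in R 4.3.3 (lmFit, eBayes with a mean-variance trend) on log2(FPKM + 1), for the 8500 genes that averaged 1 FPKM or more, 2-sided, with Benjamini-Hochberg adjustment over these genes and a threshold of 0.05. All 74 members passed this filter. A fold on this scale understates the change of low genes. The groups share no library number, and the pairing (1 and 2, 3 and 4, 57 and 76) comes from the names and from deviations that correlated by 0.592 to 0.66. Relative depth is the inverse of the most frequent ratio of nonzero values under 0.2 FPKM to those of library 1. Since separate cultures are not stated, p-values reflect only how these libraries vary, perhaps for technical reasons. Other computations used Python 3.11.15, numpy 2.4.6 and pandas 2.3.3. The 2 named genes are the member with the highest mean at pH 5.7 and the member with the largest ratio of means.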

Additional observations from a re-analysis of the deposited data

How the results depend on the processing

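Of the 74 members, 65 remained when the mean had to reach 10 FPKM, 69 with 1 FPKM added to both means, 62 among 78 genes with medians, and 74, 73 and 73 among 90, 73 and 94 genes after scaling to equal totals, to equal upper quartiles and by quantile normalization. The count became 204 with a ratio of at least 1.5, 25 with a ratio of at least 3, and 75 to 137 with 1 library left out. With the replicate block, 35 members were at least 2-fold higher in every pair, as were 38 genes that averaged 5 FPKM or more at pH 5.7 when groups could overlap. The unpaired fit called 22 members and 23 genes, which became 65 and 411 with the replicate block. Leaving out 1 library gave 2 to 17 members and 2 to 19 genes. With pairs, 65 members became 22 without the block. Dropping any pair leaves a fit of 2 libraries per pH with fewer degrees of freedom. Such a fit called 43 members when libraries 3 and 4 were dropped. Fits of this same size called 56 members with the pair of 1 and 2 dropped, and 57 with that of 57 and 76. Why the loss was largest for the pair of 3 and 4 was not tested. The 411 genes became 23 without the block, and 192, 54 and 219 without libraries 1 and 2, 3 and 4, and 57 and 76. The log2 folds of g248 and g1861 were 1.12 and 6.77. The block cannot change them, because each pair holds 1 library of each pH. The median log2 fold of the members stayed between 1.10 and 1.40 under all alternatives run, and scaling moved that of all genes to at most 0.06. The cause was not tested. Read totals are unknown, so the counting error of low levels is too.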
